A study of Mus musculus with 9 samples.

Results

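Glycolysis and the response to low oxygen were followed through 36 named genes in monocytes/macrophages of the blood and the poststroke brain. All 36 were found among the 53801 Ensembl genes of the count tables, each by matching its symbol to an identifier. No measured value enters the rule that picks them, but the list was chosen with earlier results of these data known. Identifiers and positions are given on GRCm38, from the files and GENCODE M21. Of these genes, 21 take glucose into the cell, carry it through glycolysis or decide the fate of pyruvate, and 15 encode the oxygen-sensing machinery or genes switched on by hypoxia-inducible factors (HIF). The cells came from male C57BL/6J mice of 9 weeks. In the stroke groups, the left distal middle cerebral artery and the left common carotid artery were closed permanently (dMCAO), and cells were collected 5 days later; the sham blood group had a sham operation, and its day is not named in the sources used here. Cells were sorted as CD11c-Ly6G-CD11b+CD45high. Each of the 3 stroke brain libraries pooled the cells of 5 mice, taken from the hemisphere of the infarct, whereas each of the 3 stroke blood and 3 sham blood libraries came from 1 mouse. Activated microglia can gain CD45, so the brain libraries may hold them beside cells that came from the blood.

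In glycolysis, glucose enters through membrane transporters, is trapped by hexokinase, is committed to breakdown by phosphofructokinase and ends as pyruvate, which cells low in oxygen turn into lactate and export. HIF-1α, encoded by *Hif1a*, is made all the time and destroyed as long as oxygen lets the EGLN prolyl hydroxylases mark it; once it is spared, it binds a short DNA element and switches on transporters, glycolytic enzymes and genes that limit mitochondrial respiration. Macrophages are known to lean on glycolysis when activated and to stabilize HIF-1α also without hypoxia, after inflammatory signals.

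The libraries held between 18475118 and 22623578 counts, and levels are counts per 1000000 (CPM) after TMM scaling over the 9 libraries, which assumes that most genes do not change. On this scale 3 counts, taken as the least that shows a gene, stood for 0.125 to 0.180 CPM. The monocyte marker *Lyz2*, the highest of its list, was between 35422 and 118293 CPM in every library, and none of the 10 monocyte markers was at 0 in any. Of these 10, 5 were called lower in the brain than in stroke blood and 0 higher. Their summed level was 43285 to 49469 CPM in the brain and 96488 to 132177 CPM in the blood libraries. Of 10 microglia markers, 9 were called higher in the brain than in stroke blood, and their summed level was 1582, 2760 and 4619 CPM in brain replicates 1 to 3 against 437 to 752 CPM in the 6 blood libraries. Of 13 genes known to respond to tissue dissociation, 10 were called higher in the brain, with sums of 14411 to 16003 CPM in the brain and of 2484 to 6134 CPM in the blood. Over all genes tested, 13.1% were called higher in the brain than in stroke blood and 7.86% lower. The part of any of these lists in the results below was not tested. Sham blood replicate 1 stood apart in erythroid markers, whose sum was 1262 CPM there, 31463 and 34298 CPM in the other two sham libraries, 14267 to 20655 CPM in stroke blood and 3.95 to 13.8 CPM in the brain. Summed platelet markers were low in that library too, at 21.4 CPM against 509 and 765 CPM in the other sham libraries. They were at 379 to 456 CPM in stroke blood and 36.3 to 79.7 CPM in the brain. In bulk samples, fewer cells of a type and less RNA per cell cannot be told apart.

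To ask how glycolytic and hypoxia genes differ between monocytes/macrophages of the brain and those left in the circulation, the brain libraries were compared with stroke blood. Of the phosphofructokinase subunits and their regulators, *Pfkfb3* and *Pfkl* were called higher in the brain and *Pfkm* lower, while *Pfkp* and *Pfkfb4* were not called. Also higher were *Hif1a* and the feedback hydroxylase *Egln3*, while *Eno1*, *Aldoa* and *Pkm*, the 3 most abundant of these genes per kb in stroke blood, did not pass, with log2 fold changes of -0.09, 0.08 and 0.21. Of 36 genes, 35 passed the filter on low counts; *Adm* did not. By edgeR's quasi-likelihood test, 7 were called higher (log2 fold change above 1 and Benjamini-Hochberg adjusted p below 0.05), against 13.1% of the 13189 genes tested, and 3 were called lower, against 7.86%. Without the fold threshold, 15 were higher (17.5% of all genes) and 4 lower (13.1%). The 15 make up 42.9% of the 35. At an unadjusted p below 0.05 they were 17 (23.2%) and 4 (18.9%), and the 3 brain values lay above all 3 stroke blood values for 19 genes (25.0% of all genes) and below them for 4 (23.2%). The median log2 fold change was 0.42 over the 35 genes and 0.06 over all genes tested. Among the 21 glycolysis genes 2 were called higher and 1 lower, with a median of 0.21, and among the 14 tested oxygen-sensing and HIF-regulated genes 5 were called higher and 2 lower, with a median of 0.87.

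**Figure D1:**
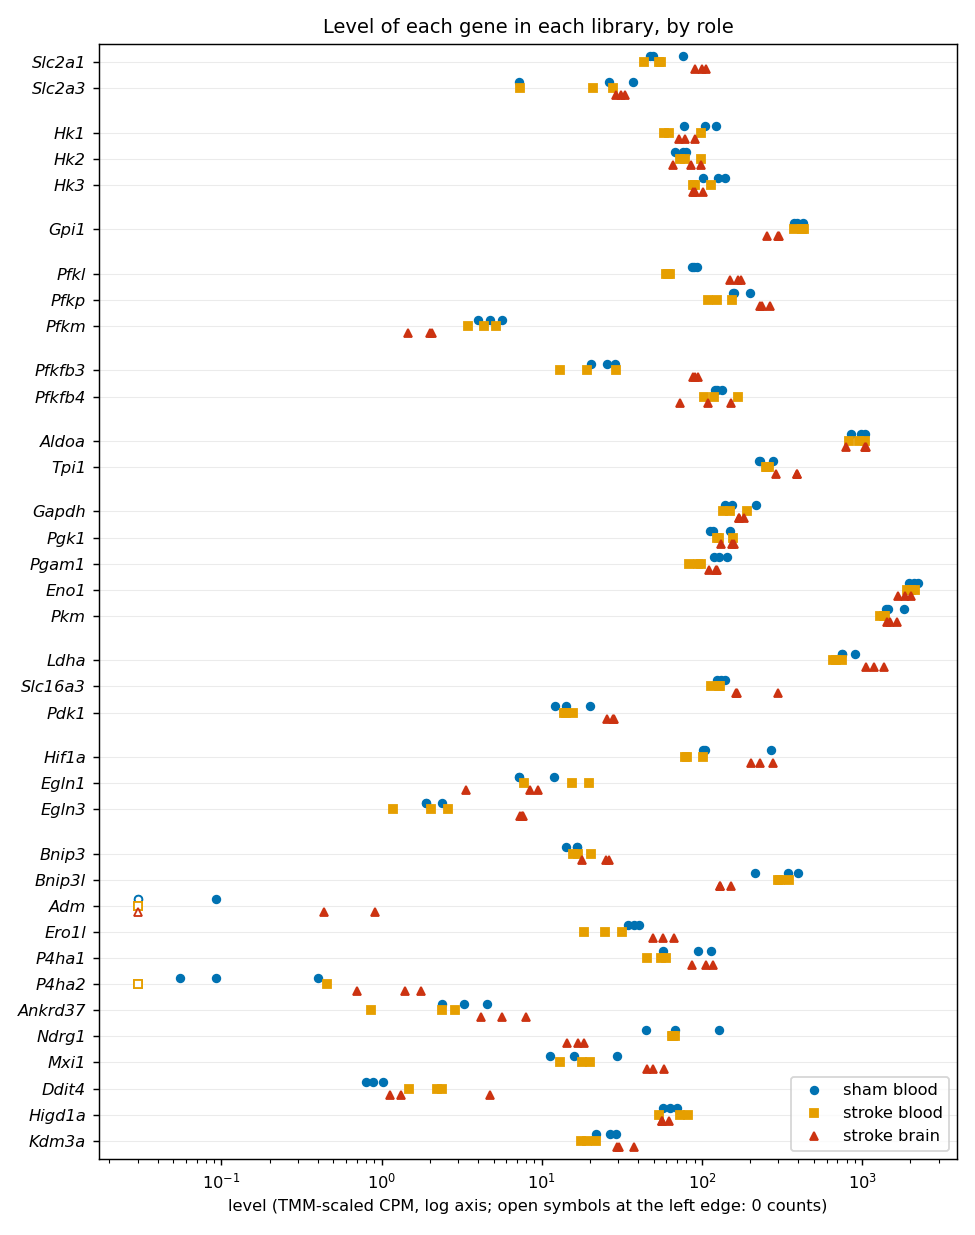
Level of each of the 36 genes in each of the 9 libraries, as TMM-scaled CPM on a log axis, with rows ordered by role and open symbols at the left edge for libraries with 0 counts. The red brain symbols lie to the right of both blood groups for *Pfkfb3*, *Pfkl* and *Egln3*, to the left for *Pfkm*, *Bnip3l* and *Ndrg1*, while for *Hk2* and *Aldoa* the brain range overlaps that of the blood.

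At glucose entry, *Slc2a1* encodes GLUT1, the transporter of basal glucose uptake. Its level was 43.2, 53.6 and 55.6 CPM in stroke blood, 47.6, 49.4 and 76.3 CPM in sham blood and 100.1, 105 and 90.6 CPM in the brain. All brain values lay above all blood values, and the gain over stroke blood was 0.99 ± 0.17 on the log2 scale (SE; adjusted p = 0.00237 by edgeR), which is under the fold threshold. *Slc2a3*, which encodes the high-affinity transporter GLUT3, was at 29.3 to 33.2 CPM in the brain and spread from 7.31 to 27.7 CPM in stroke blood, and its log2 fold change of 0.76 ± 0.40 did not pass (edgeR adjusted p = 0.18). *Slc2a6*, a gene of the same transporter family outside the list, was at means of 126 CPM in the brain and 200 CPM in stroke blood. It was lower in the brain, under the fold threshold (log2 fold change -0.64 ± 0.14, edgeR adjusted p = 0.0079). Exons of *Slc2a1* overlap an antisense gene, and the strand setting of the counting is not given in the sources used here.

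None of the 3 hexokinases passed the test in either direction. *Hk2*, the HIF-responsive form, was at 65.4 to 98.9 CPM in the brain and 72.9 to 97.9 CPM in stroke blood, with a log2 fold change of 0.04 and a 95% interval from -0.40 to 0.47. For *Hk1*, the form that most tissues express, the interval ran from -0.36 to 0.69, and for *Hk3*, a form of myeloid cells, from -0.38 to 0.34. Counted per kb of transcript, *Hk3* made up 50.4% ± 4.96 (SD, n = 3) of hexokinase RNA in sham blood, 48.5% ± 5.18 in stroke blood and 46.3% ± 3.01 in the brain.

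At the committed step, the liver-type subunit *Pfkl* (ENSMUSG00000020277, chr10:77986947-78010083) was at 59.6, 62.9 and 61.2 CPM in stroke blood, 89.2, 93.7 and 86.6 CPM in sham blood and 149, 175 and 167 CPM in the brain. The 3 groups did not overlap, and stroke blood was the lowest. Brain exceeded stroke blood by 1.45 ± 0.15 on the log2 scale, a fold of 2.73 (edgeR adjusted p = 0.00018), and it was called under every alternative and without any 1 library. The platelet-type subunit *Pfkp*, the most abundant per kb, was at 109 to 155 CPM in stroke blood and 231 to 266 CPM in the brain, higher by 0.95 ± 0.18 (edgeR adjusted p = 0.00376). The muscle-type *Pfkm* (ENSMUSG00000033065, chr15:98092589-98132451) was scarce and went the other way, from 4.39, 3.46 and 5.15 CPM in stroke blood to 2.05, 1.45 and 2.01 CPM in the brain (log2 fold change -1.20 ± 0.39, edgeR adjusted p = 0.0452). That call was lost whichever of the 6 libraries was left out. *Pfkl* took 42.3% ± 1.11 of phosphofructokinase RNA per kb in the brain against 33.6% ± 3.18 in stroke blood, and *Pfkm* 0.62% ± 0.15 against 3.13% ± 0.92. Exons of *Pfkm* and *Pfkp* overlap other genes, which leaves their counts uncertain.

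Phosphofructokinase is driven by a sugar bisphosphate that the PFKFB enzymes make and remove, and *Pfkfb3* (ENSMUSG00000026773, chr2:11471433-11554077), whose enzyme favours its synthesis, had the largest rise among the 7 genes called. It lay at 13.005, 19.1 and 29.0 CPM in stroke blood, 25.5, 28.5 and 20.2 CPM in sham blood and 94.3, 88.1 and 90.7 CPM in the brain. The brain libraries lay close together, far above both blood groups, and the log2 fold change was 2.20 ± 0.27, a fold of 4.59 (edgeR adjusted p = 0.000447). Its relative *Pfkfb4* did not pass, at 103 to 167 CPM in stroke blood and 72.9, 151 and 109 CPM in the brain (log2 fold change -0.20, 95% interval from -0.82 to 0.43). Per kb, *Pfkfb4* remained the larger of the pair in the mean of every group, but the share of *Pfkfb3* was 38.6% ± 9.40 in the brain, 10.7% ± 5.45 in stroke blood and 12.4% ± 1.70 in sham blood.

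**Figure D2:**
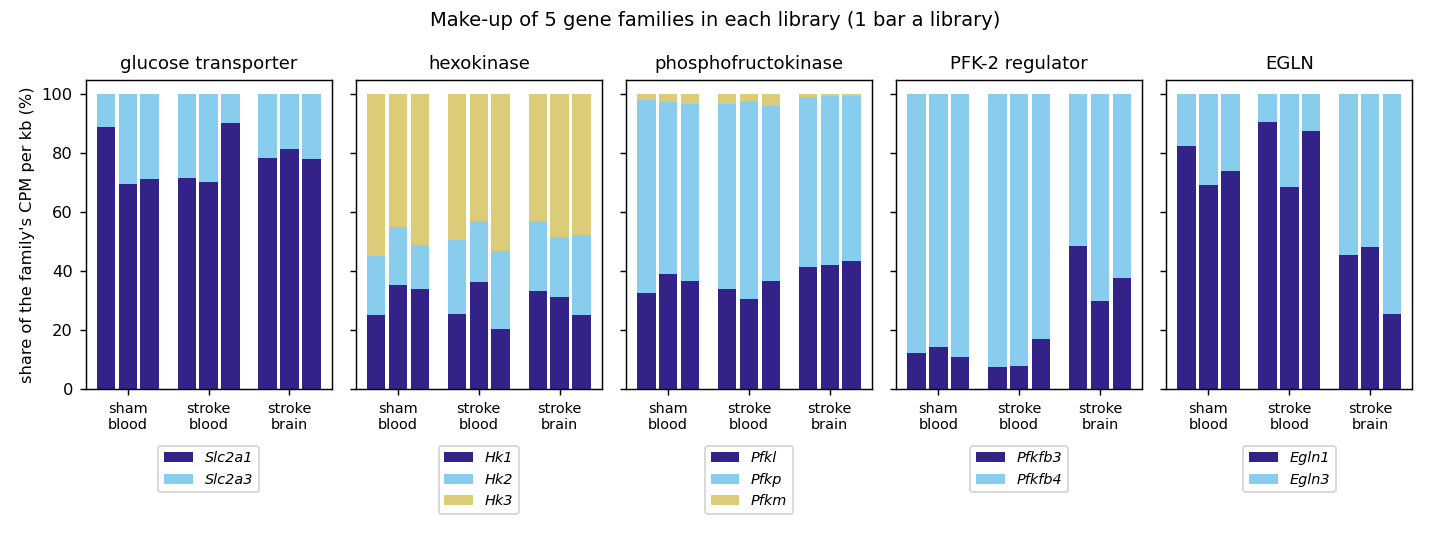
Share of each gene in the summed CPM per kb of the listed genes of its family, in percent. Family genes outside the list, among them *Egln2* and *Slc2a6*, are not counted. There is 1 bar for each library, with replicates 1 to 3 from left to right within a group. *Pfkfb3* takes between 29.7% and 48.5% in the 3 brain libraries and at most 16.9% in the blood, *Egln3* at least 51.9% in the brain and at most 31.3% in the blood, and the hexokinases show no such shift.

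Most of the remaining enzymes of glycolysis did not pass. *Aldoa*, which splits the hexose, and *Gapdh*, *Pgk1*, *Eno1* and *Pkm* of the later steps had log2 fold changes of 0.08, 0.18, 0.15, -0.09 and 0.21 with 95% intervals that lay between -0.41 and 0.53. *Eno1* was the most abundant of the 36 genes per kb, at 992 ± 58.8 CPM per kb in stroke blood and 909 ± 83.6 in the brain (SD, n = 3). *Tpi1*, which interconverts the triose phosphates, was at 250, 263 and 256 CPM in stroke blood and 290, 391 and 390 CPM in the brain, higher by 0.51 ± 0.16 (edgeR adjusted p = 0.0371), but the adjusted p stayed below 0.05 in 1 of the 6 fits without 1 library. *Gpi1*, the isomerase behind hexokinase, was lower in the brain, at 256 to 303 CPM against 375 to 435 CPM (log2 fold change -0.49 ± 0.14, edgeR adjusted p = 0.0282), with the adjusted p below 0.05 in 2 of those 6 fits. Its exons share 741 bases with a gene on the other strand. Near-identical sequence in other genes covered 48.7% of its transcript, so its counts are uncertain. *Pgam1*, the mutase before enolase, had a log2 fold change of 0.41 ± 0.15 and did not pass (edgeR adjusted p = 0.0725).

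Summed over the 14 enzymes of the steps from hexokinase to pyruvate kinase, the level was 5640, 6532 and 6088 CPM in the brain, 5836, 5558 and 6000 CPM in stroke blood and 6127, 5865 and 6766 CPM in sham blood. The groups overlapped in this sum, of which *Eno1* and *Pkm* made up the largest share. Near-identical sequence in other genes covered 87.96% of the *Gapdh* transcript, 85.6% of *Eno1*, 68.8% of *Pgk1* and 65.5% of *Pkm*, so reads of these genes could have been lost or shared out in mapping.

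At the end of the pathway all 3 genes were higher in the brain, each by less than 1 on the log2 scale. *Ldha*, the lactate dehydrogenase subunit that favours lactate, was at 745, 654 and 688 CPM in stroke blood, 744, 745 and 903 CPM in sham blood and 1050, 1363 and 1189 CPM in the brain. The brain values lay above all blood values, with a log2 fold change of 0.82 ± 0.15 against stroke blood (edgeR adjusted p = 0.00371). *Pdk1*, the kinase that keeps pyruvate out of the mitochondria, was at 13.7 to 15.6 CPM in stroke blood and 25.4 to 28.1 CPM in the brain, higher by 0.94 ± 0.19 (edgeR adjusted p = 0.00566). The lactate exporter MCT4 is encoded by *Slc16a3*, which was at 127, 130 and 113 CPM in stroke blood and 298, 165 and 164 CPM in the brain. Brain replicate 1 stood well above the other two, and the log2 fold change of 0.79 ± 0.24 (edgeR adjusted p = 0.0348) ranged from 0.45 to 0.95 when 1 library was left out, with an adjusted p below 0.05 in 2 of 6 fits.

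**Figure D3:**
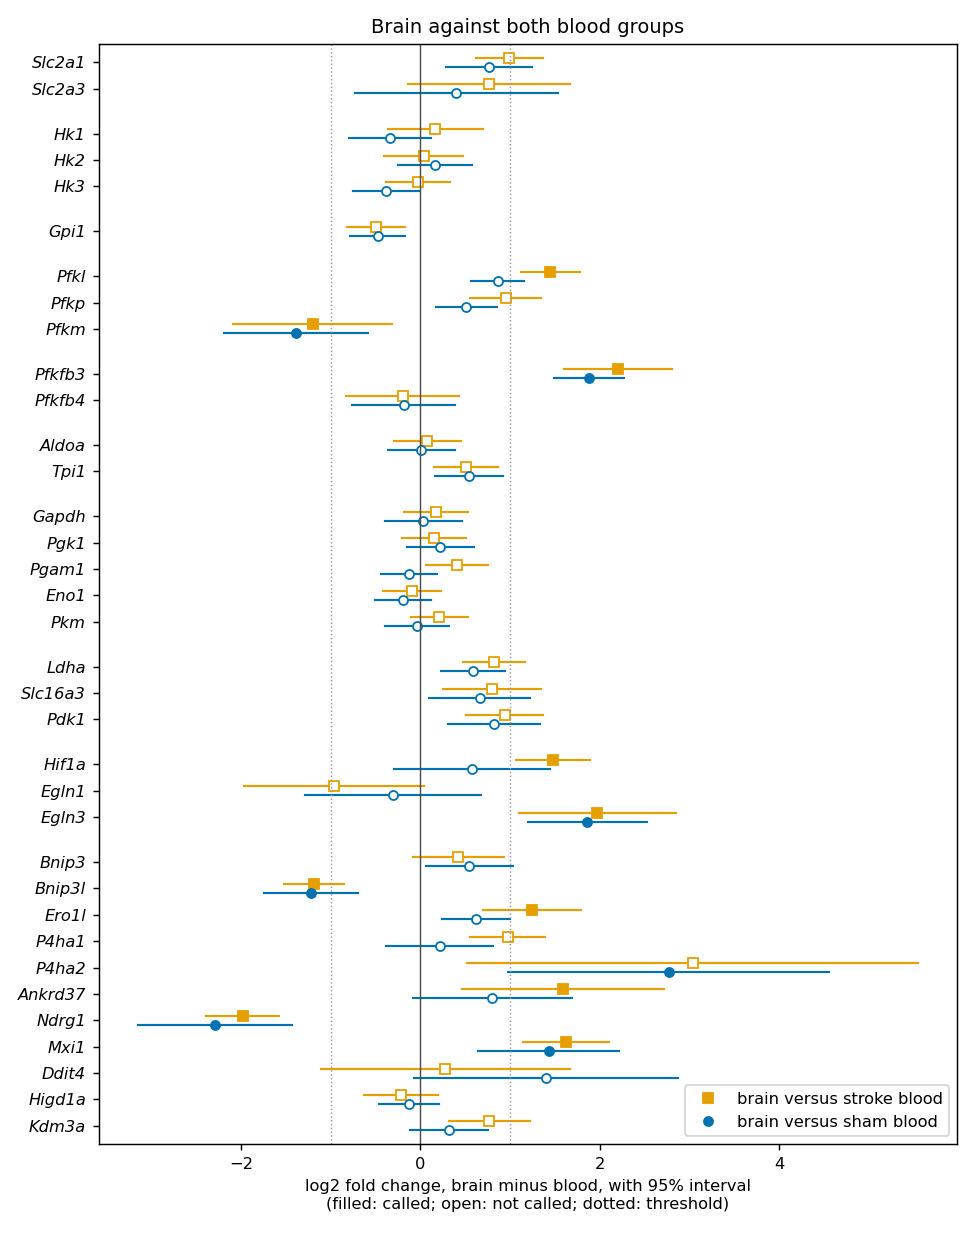
Log2 fold change of the brain against stroke blood (orange squares) and against sham blood (blue circles) with 95% intervals, for the 35 genes tested in either comparison, where filled symbols mark calls and dotted lines the fold threshold. Both comparisons use the same 3 brain libraries, so their points are not independent. *Pfkfb3*, *Egln3* and *Mxi1* are filled on the right and *Pfkm*, *Bnip3l* and *Ndrg1* on the left in both.

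Among the oxygen-sensing genes, *Hif1a* (ENSMUSG00000021109, chr12:73901375-73947530) was at 78.1, 102 and 80.1 CPM in stroke blood and 203, 277 and 229 CPM in the brain. The groups did not overlap, and brain exceeded stroke blood by 1.48 ± 0.18, a fold of 2.78 (edgeR adjusted p = 0.000496). In sham blood it was at 269 CPM in replicate 1 but at 101 and 104 CPM in replicates 2 and 3, so that the brain did not pass against sham blood (log2 fold change 0.57 ± 0.38, edgeR adjusted p = 0.318). Without sham blood replicate 1 the log2 fold change was 1.2 and was called. That library is also the one low in erythroid markers, and whether both have 1 source was not tested.

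*Egln3* (ENSMUSG00000035105, chr12:54178981-54203860), a prolyl hydroxylase that HIF itself induces and that in turn marks HIF for destruction, was at 1.17, 2.61 and 2.04 CPM in stroke blood, 1.89, 2.38 and 1.88 CPM in sham blood and 7.52, 7.603 and 7.33 CPM in the brain. The brain libraries were almost level with each other and above every blood library (log2 fold change 1.97 ± 0.39, a fold of 3.92, edgeR adjusted p = 0.00502). *Egln1*, the main oxygen sensor of most cells, was uneven at 15.5, 7.73 and 19.7 CPM in stroke blood and 8.49, 9.51 and 3.36 CPM in the brain, and its log2 fold change of -0.96 ± 0.44 did not pass (edgeR adjusted p = 0.131). Per kb, *Egln3* took 60.3% ± 12.5 of the RNA of this pair in the brain and 17.6% ± 11.95 in stroke blood. A further EGLN gene, *Egln2*, is outside the list and not counted in these shares. It was more abundant than both, at means of 57.1 CPM in the brain and 66.4 CPM in stroke blood. Its log2 fold change of -0.18 ± 0.16 did not pass (edgeR adjusted p = 0.43).

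Of the 12 HIF-regulated effectors, 3 were called higher in the brain (13.1% of all genes), 2 lower (7.86%), and *Adm* was not tested. *Mxi1* (ENSMUSG00000025025, chr19:53310518-53375810), which encodes a repressor that opposes MYC, was at 17.9, 13.04 and 19.9 CPM in stroke blood and 58.3, 49.1 and 45.1 CPM in the brain (log2 fold change 1.62 ± 0.21, edgeR adjusted p = 0.000659). *Ero1l* (ENSMUSG00000021831, chr14:45283087-45318771), the oxidase that helps form disulfide bonds in the endoplasmic reticulum, was at 24.8, 31.7 and 18.3 CPM in stroke blood and 66.5, 57.0 and 49.8 CPM in the brain (1.24 ± 0.24, edgeR adjusted p = 0.00478). For both genes the groups were clearly apart, and the call held without any 1 library. *Ankrd37* (ENSMUSG00000050914, chr8:45996902-46005707), an ankyrin-repeat gene strongly induced by HIF in many cells, had few reads, at 2.86, 0.854 and 2.40 CPM in stroke blood and 8.005, 5.65 and 4.14 CPM in the brain (1.59 ± 0.50, edgeR adjusted p = 0.0384). With each library left out once, the call was lost in 5 of 6 fits, and its exons overlap *Ufsp2* and *Lrp2bp* on the other strand.

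A pair of effectors fell in the brain. *Ndrg1* (ENSMUSG00000005125, chr15:66929318-66969640), a stress gene that hypoxia raises in many cell types, was at 65.1, 68.1 and 65.8 CPM in stroke blood, 44.4, 68.1 and 129 CPM in sham blood and 18.4, 14.3 and 16.8 CPM in the brain. It had the largest fall of the 35 genes (-1.98 ± 0.18, edgeR adjusted p = 9.65e-05). *Bnip3l* (ENSMUSG00000022051, chr14:66985239-67008877) encodes a receptor for the removal of mitochondria, also by maturing red cells, and was at 351, 298 and 307 CPM in stroke blood, 214, 395 and 345 CPM in sham blood and 129, 130 and 152 CPM in the brain (-1.19 ± 0.15, edgeR adjusted p = 0.000496). Both were below every blood library in all 3 brain libraries. All 9 erythroid markers of the list were called lower in the brain too, where 3 or 4 of them were at 0 in each library. Their part in the fall of *Bnip3l* and *Ndrg1* was not tested. In sham blood replicate 1, the sum of these markers was the lowest of the blood libraries at 1262 CPM. There *Bnip3l* and *Ndrg1* were also at their lowest blood values and still above the brain.

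The other effectors were not called. *P4ha1* and *Kdm3a*, a collagen prolyl hydroxylase and a histone demethylase, were higher in the brain by 0.97 ± 0.19 and 0.77 ± 0.20 (edgeR adjusted p = 0.00427 and 0.0188), and without 1 library the adjusted p stayed below 0.05 in 6 and 4 of 6 fits. *Bnip3*, the close relative of *Bnip3l*, was at 15.7 to 20.2 CPM in stroke blood and 17.9 to 26.1 CPM in the brain (0.42 ± 0.22, edgeR adjusted p = 0.184). *Higd1a*, a mitochondrial inner-membrane gene, had a 95% interval from -0.63 to 0.19. *P4ha2* was near the limit of detection, at 0.459, 0 and 0 CPM in stroke blood and 1.76, 0.706 and 1.40 CPM in the brain, and did not pass (edgeR adjusted p = 0.0672), although it was called without stroke blood replicate 1, the only library of that group with reads. *Ddit4*, an inhibitor of mTOR signalling, was at 4.73 CPM in brain replicate 1 and at 1.33 and 1.13 CPM in the other two, both below the stroke blood range of 1.48 to 2.37 CPM. *Adm*, which encodes adrenomedullin, had 0, 22 and 10 counts in the brain libraries, 0 in all stroke blood libraries and 0, 2 and 0 in sham blood.

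**Figure D4:**
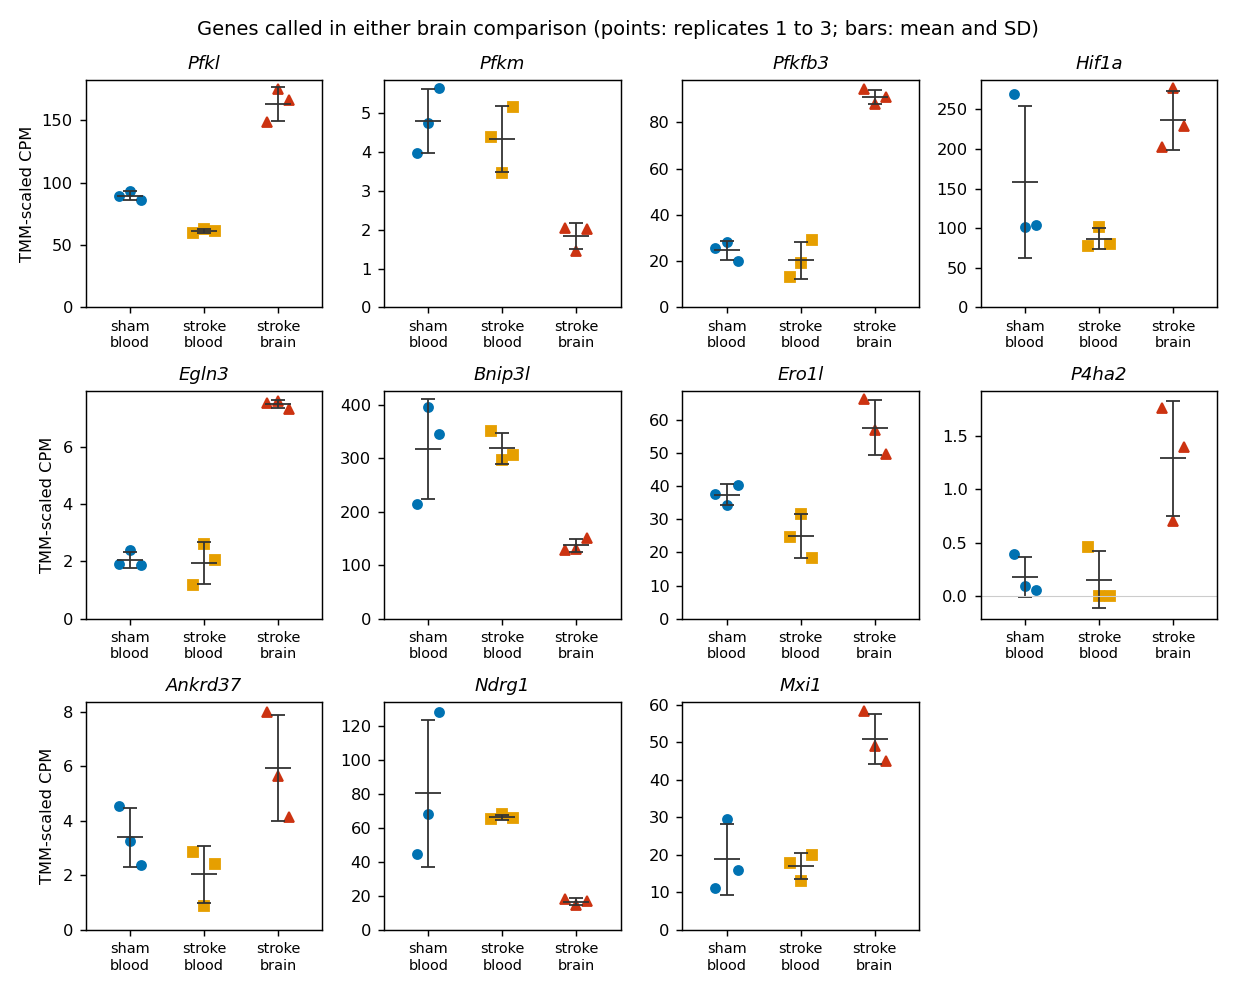
Level (TMM-scaled CPM, each panel with its own axis) of the 11 genes called in either brain comparison, with a point for each library, a horizontal mark for the mean and bars for the SD of 3 libraries. The brain points stand above both blood groups for *Pfkl*, *Pfkfb3*, *Egln3*, *Ero1l*, *P4ha2* and *Mxi1* and below them for *Pfkm*, *Bnip3l* and *Ndrg1*, whereas for *Hif1a* sham blood replicate 1, at 269 CPM, lies among the brain points.

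HIF dimers bind a core of ACGTG or GCGTG. These letters, on either strand, were sought in RefSeq promoter windows of 300 bases (GRCm38.p6; 250 before to 50 after a transcription start), which 33 of the 36 genes had, in 49 windows. *Slc2a3*, *Bnip3l* and *Ndrg1* were not matched. A core was present in 39 of the 49 windows (79.6%), in 43.8% of all 32851 windows and in 60.8% of the windows of genes tested. The mean GC content was 62.6%, 53.8% and 60.1% in the same order. ACGTG alone stood in 57.1% of the windows of these genes and in 25.4% of those of genes tested, and GCGTG alone in 53.1% and 49.2%. Only *Gpi1*, which was lower in the brain, and *Tpi1*, which was higher, had no core in any window, and *Hk2* and *Pgk1*, which did not pass, had 2 each. A match is no evidence of binding. To show the letters, the 250 bases before the start are printed for *Egln3*, *Mxi1*, *Hif1a* and *Ldha*, which were higher in the brain, and for *Pgk1*, which was not. They run 5′ to 3′ on the gene's strand with cores of either strand in capitals, so that CACGT is ACGTG and CACGC is GCGTG read on the other strand, and CACGTG holds a core on both. None of these stretches overlaps an annotated exon. Those of *Mxi1*, *Hif1a* and *Ldha* precede an inner start and lie in an intron of longer transcripts of the gene. *Mxi1* and *Ldha* had further windows, which are not printed. For *Mxi1*, the window before the first start of the gene held 0 cores and another inner window held 1. The other window of *Ldha* held 2.
Egln3, chr12:54203875-54204124, minus strand: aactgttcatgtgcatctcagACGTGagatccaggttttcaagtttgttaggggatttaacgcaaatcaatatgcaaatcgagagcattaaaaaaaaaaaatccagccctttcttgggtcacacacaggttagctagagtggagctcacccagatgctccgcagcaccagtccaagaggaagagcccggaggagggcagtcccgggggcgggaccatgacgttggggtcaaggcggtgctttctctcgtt
Mxi1, chr19:53329163-53329412, plus strand: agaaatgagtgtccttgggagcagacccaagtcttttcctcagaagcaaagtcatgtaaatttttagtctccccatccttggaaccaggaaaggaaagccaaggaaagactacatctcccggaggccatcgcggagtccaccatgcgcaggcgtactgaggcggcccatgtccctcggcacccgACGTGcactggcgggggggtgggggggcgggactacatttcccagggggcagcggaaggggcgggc
Hif1a, chr12:73907617-73907866, plus strand: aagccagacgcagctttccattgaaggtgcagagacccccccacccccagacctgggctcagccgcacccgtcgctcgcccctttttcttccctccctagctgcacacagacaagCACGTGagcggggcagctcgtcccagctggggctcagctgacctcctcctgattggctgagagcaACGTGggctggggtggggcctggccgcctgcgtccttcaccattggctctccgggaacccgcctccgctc
Ldha, chr7:46845554-46845803, plus strand: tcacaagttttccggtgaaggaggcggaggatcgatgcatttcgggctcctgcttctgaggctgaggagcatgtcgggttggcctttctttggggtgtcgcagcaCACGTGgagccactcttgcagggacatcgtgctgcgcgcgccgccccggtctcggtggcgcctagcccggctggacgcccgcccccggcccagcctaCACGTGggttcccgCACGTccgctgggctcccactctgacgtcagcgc
Pgk1, chrX:106186850-106187099, plus strand: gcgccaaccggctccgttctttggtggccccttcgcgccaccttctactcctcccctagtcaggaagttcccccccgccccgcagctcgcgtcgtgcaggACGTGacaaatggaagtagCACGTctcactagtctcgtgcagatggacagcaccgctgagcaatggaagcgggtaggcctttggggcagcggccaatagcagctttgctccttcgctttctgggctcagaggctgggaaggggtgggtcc

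**Figure D5:**
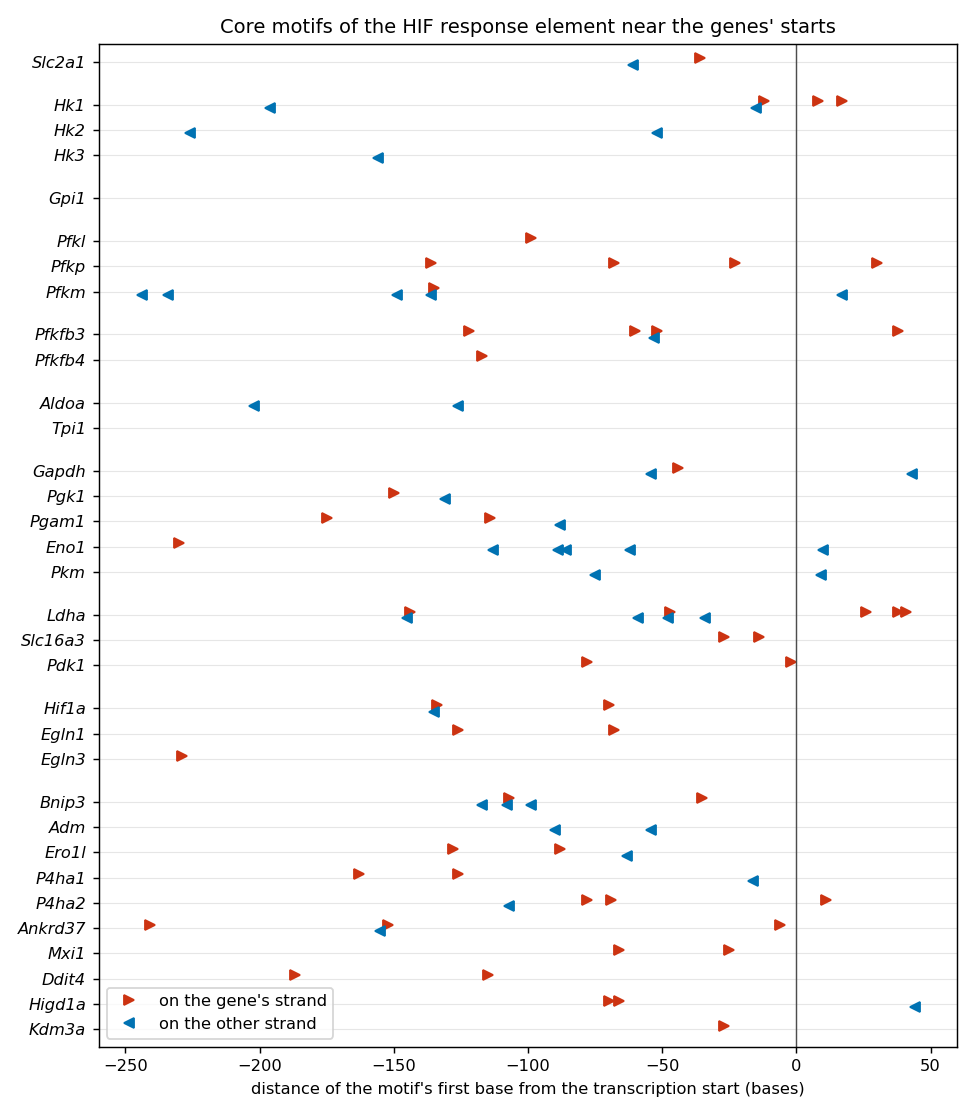
Position of each core relative to the transcription start, in bases, for the 33 genes with a promoter window, with windows of 1 gene overlaid on its row and arrowheads for the strand. Rows of *Gpi1* and *Tpi1* are empty; *Ldha*, with 2 windows, holds up to 7 cores in 1 of them.

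The comparison of the brain with sham blood shares its brain libraries with the comparison above. Here 4 genes were called higher (9.75% of the 13020 genes tested) and 3 lower (3.67%), and without the fold threshold 10 were higher (12.1%) and 4 lower (7.68%). At an unadjusted p below 0.05, 13 were higher (19.2%) and 5 lower (15.1%), and the groups did not overlap for 15 genes higher (22.2%) and 4 lower (19.0%) in the brain. *Pfkfb3* was higher by 1.88 ± 0.17, *Egln3* by 1.86 ± 0.29 and *Mxi1* by 1.43 ± 0.34 (edgeR adjusted p = 0.000683, 0.00521 and 0.0237). The call of *Mxi1* was lost without sham blood replicate 3 or any 1 of the brain libraries, at log2 fold changes of 1.31 to 1.51. *P4ha2* was also called, at 2.76 ± 0.77 (edgeR adjusted p = 0.0421), on 0.398, 0.0932 and 0.0554 CPM in sham blood, and its call was lost in 5 of the 6 fits without 1 library. *Ndrg1*, *Pfkm* and *Bnip3l* were lower by 2.29 ± 0.37, 1.38 ± 0.35 and 1.22 ± 0.23 (negative log2 fold changes, edgeR adjusted p = 0.00647, 0.0284 and 0.0106), and the call of *Pfkm* was lost in 4 of the 6 fits without 1 library. *Pfkl* and *Ero1l*, called against stroke blood, were higher by 0.86 ± 0.13 and 0.62 ± 0.17 (edgeR adjusted p = 0.00495 and 0.0361), with the adjusted p below 0.05 in 6 and 0 of 6 fits without 1 library. *Ankrd37*, also called against stroke blood, overlapped with sham blood and did not pass (0.80 ± 0.38, edgeR adjusted p = 0.183). The median log2 fold change was 0.32 over the 35 genes and 0.01 over all genes tested.

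To see whether stroke changed these genes in circulating monocytes, stroke blood was compared with sham blood. By edgeR 0 of the 34 genes tested were called in either direction, where 1 of 12664 genes was called higher (0.0079%) and 0 lower (0.0%), and DESeq2 called 0 of them as well. At an unadjusted p below 0.05, 6 were lower in stroke blood (*Ero1l*, *Hif1a*, *P4ha1*, *Pfkl*, *Pfkp* and *Pgam1*), against 5.97% of all genes, and 1, *Ddit4*, was higher, against 6.51%. The 2 blood groups did not overlap for 1 gene higher (9.77% of all genes) and 6 lower (8.28%) in stroke blood. The lowest adjusted p among them was 0.285, for *Pfkl*, with a log2 fold change of -0.58 and a 95% interval from -0.91 to -0.26. *Pfkfb3* and *Egln3* had log2 fold changes of -0.32 and -0.11, with intervals from -0.97 to 0.34 and from -1.09 to 0.88. The smallest two-sided p that exact permutation of 3 against 3 libraries allows for any 1 gene is 0.1.

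Within the brain group, the highest level of a gene fell in replicate 1 for 14 of the 36 genes (38.9%), in replicate 2 for 18 (50%) and in replicate 3 for 4 (11.1%). This order depended on the scaling: with library size only, replicate 1 led with 17 genes against 15 in replicate 2, and with RLE normalization both had 16. Over the 13163 genes tested against stroke blood that had a count in any brain library, the shares were 37.2%, 31.6% and 31.2%. Of the 15 oxygen-sensing and HIF-regulated genes, 8 were highest in replicate 1, and of the 21 glycolysis genes, 12 were highest in replicate 2. Wide spreads within the brain included those of *Ddit4* (2.40 ± 2.02 CPM, SD, n = 3), *Egln1* (7.12 ± 3.30 CPM), *Slc16a3* (209 ± 77.0 CPM) and *Pfkfb4* (111 ± 39.2 CPM). The scarce *Adm* (0.450 ± 0.457 CPM) and *P4ha2* (1.29 ± 0.534 CPM) also spread widely. *Ddit4* and *Slc16a3* were highest, and *Pfkfb4* lowest, in replicate 1.

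Other genes of these pathways, taken from lists chosen by function, were counted in the same fit. Of 15 other glycolysis genes tested, 4 were called higher in the brain than in stroke blood and 2 lower, against 13.1% and 7.86% of all genes tested. The fructose transporter gene *Slc2a5* was at 0 counts in stroke blood and at 19.3, 31.7 and 80.0 CPM in the brain; it is itself one of the microglia markers above. *Slc16a1*, the monocarboxylate transporter MCT1, was higher by 1.78 ± 0.47 and *Aldoc*, the brain-type aldolase, by 1.00 ± 0.30 (edgeR adjusted p = 0.0183 and 0.0321), and the neuronal enolase *Eno2* was at 0 in all blood libraries and at 0.732 to 1.58 CPM in the brain. *Bpgm*, the enzyme that makes bisphosphoglycerate in red cells, was at 37.6, 984 and 685 CPM in sham blood, 335 to 369 CPM in stroke blood and 6.54 to 7.96 CPM in the brain. It was low in the sham library low in erythroid markers, and their part was not tested. The muscle-type mutase *Pgam2* was lower by 1.22 ± 0.39 (a negative log2 fold change, edgeR adjusted p = 0.042).

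Of 23 other HIF pathway genes tested, 7 were called higher and 0 lower in the brain, against 13.1% and 7.86% of all genes tested. *Vegfa*, the main angiogenic target of HIF, was at 0 counts in stroke blood and at 222, 15.7 and 14.7 CPM in the brain, so brain replicate 1 set its mean. Summed choroid plexus markers were also highest in that library, at 234 CPM against 30.7 and 105 CPM in replicates 2 and 3, and their part was not tested. *Bhlhe40* and *Bhlhe41*, transcriptional repressors that hypoxia induces, were higher by 3.53 ± 0.37 and 5.94 ± 0.77 (edgeR adjusted p = 0.000225 and 0.000602); *Bhlhe40* was at 525, 284 and 252 CPM in the brain and *Bhlhe41* at 8.88, 8.77 and 43.5 CPM. *Cited2*, which competes with HIF for its coactivator, was higher by 1.16 ± 0.30 (edgeR adjusted p = 0.0176). In the alternative fates of glucose carbon, 0 of 26 genes of pyruvate entry and the TCA cycle were called in either direction by edgeR, with a median log2 fold change of 0.01. Without the fold threshold, 2 of the 26 were higher, *Idh3a* and *Mdh2* of the TCA cycle by 0.83 and 0.61 (edgeR adjusted p = 0.0191 and 0.0117). Lower were 3, namely *Mpc1* and *Mpc2*, the mitochondrial pyruvate carrier, and *Idh3g*, with log2 fold changes of -0.68, -0.94 and -0.54 (edgeR adjusted p = 0.0201, 0.00595 and 0.0239). These 5 were named after their values were seen. Without the fold threshold, 17.5% of all genes tested were higher and 13.1% lower. Of the 7 pentose phosphate genes, which supply NADPH, 0 were called higher and 2 lower, with a median of -0.95, and 6 were lower without the fold threshold. *Pgd*, the second NADPH-yielding enzyme, was at 525, 490 and 493 CPM in stroke blood and 222, 199 and 195 CPM in the brain (-1.26 ± 0.14, edgeR adjusted p = 0.00029), and the scarce *Rpia* fell by 1.90 on the log2 scale (edgeR adjusted p = 0.0245).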

How the data were processed

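mRNA of CD11c-Ly6G-CD11b+CD45high cells was sequenced from 9 libraries, grouped by their labels into stroke brain, stroke blood and sham blood (3 each). The authors aligned paired-end reads with HISAT2 (GRCm38) and obtained gene counts with HTSeq, versions and strand setting not given in the sources used here; the deposited values are raw counts. Replicates of a group differed beyond sampling noise (chi-square over degrees of freedom, 23.9 to 136) and were each counted once. Symbols came from GENCODE M21, which places 52142 of the 53801 identifiers at the same position. *Aldoa* matched a second identifier with at most 4 counts, which was left out. Exons of further members overlap other genes too, among them *Hif1a*, *Ndrg1* and *Mxi1*, which leaves their counts uncertain.

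The counts were fitted over all genes with edgeR 4.0.16 (R 4.3.3; TMM, default filter, quasi-likelihood test, Benjamini-Hochberg over all genes tested) between the groups compared, and called where the adjusted p was below 0.05 and the log2 fold change beyond 1 in either direction. The authors used DESeq2, kept as an alternative (1.42.0). Other alternatives were no filter, a mean of at least 50 counts, RLE, upper-quartile and library-size scaling, a joint fit of all 9 libraries, the replicate block, other thresholds and each library left out. Levels per kb divide by the longest protein-coding transcript; near-identical copies shared at least 75 bases at 98% identity. The method was tested on simulated data. The genes and lists were chosen with earlier results of these data known. Every member was named, and of each other list at most 4 called genes per direction with the highest mean log2 CPM. Outside this rule, *Egln2*, *Slc2a6*, *Idh3a*, *Mdh2*, *Mpc1*, *Mpc2* and *Idh3g* were named after their values were seen. Intervals are 95% confidence intervals, and floors cover counting error only.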

Additional observations from a re-analysis of the deposited data

How the results depend on the processing

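Against stroke blood, the 7 genes called higher were 11 with scaling by library size only, which moved the median of all genes from 0.06 to 0.22, and 15 with no fold change threshold; without 1 library they were 6 to 9, and the 3 called lower were 2. Against sham blood, the 4 called higher were 2 at an adjusted p below 0.01, 10 with no fold change threshold and 2 to 5 without 1 library, and the 3 called lower were 1 at an adjusted p below 0.01 and 2 to 3 without 1 library. Leaving out any 1 brain library left 2 called higher against sham blood. Among other pathway genes, 11 were called higher and 4 lower, with ranges of 7 to 11 (7 without stroke blood replicate 3) and 2 to 5 (2 without stroke blood replicate 1 or stroke brain replicate 3) when 1 library was left out. Of the promoter windows, 79.6% held a core, 53.1% GCGTG and 57.1% ACGTG. The causes were not tested.

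Genes that turned direction were called under no setting in that comparison. Against stroke blood, upper quartile normalization gave -0.11 for *Hk2*, -0.072 for *Aldoa* and -0.0019 for *Pgk1* on the log2 scale, library size only 0.14 for *Hk3* and 0.065 for *Eno1*, a single fit of all 9 libraries -0.000221 for *Hk2*, and the replicate block -0.031 for *Ddit4*. Without 1 library the values ran from -0.0089 to 0.43 for *Hk1*, -0.097 to 0.19 for *Hk2*, -0.12 to 0.062 for *Hk3*, -0.48 to 0.033 for *Pfkfb4*, -0.042 to 0.20 for *Aldoa* and -0.68 to 0.62 for *Ddit4*. Against sham blood, no filter on low counts gave -0.002919 and upper quartile normalization -0.059 for *Aldoa*, upper quartile normalization -0.039 for *Gapdh* and library size only 0.086 for *Pkm*. Without 1 library they ran from -0.028 to 0.89 for *Slc2a3*, -0.48 to 0.0397 for *Pfkfb4*, -0.067 to 0.13 for *Aldoa*, -0.10 to 0.24 for *Gapdh*, -0.11 to 0.083 for *Pkm*, -0.58 to 0.028 for *Egln1* and -0.033 to 0.44 for *P4ha1*.

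Whether a stroke blood library shares a mouse with a brain library is not given in the sources used here. Deviations of same-numbered libraries from the group means correlated by -0.073 to 0.075, and the main fit did not pair them. With the replicate block, 8 genes were called higher and 2 lower against stroke blood, 4 higher and 2 lower against sham blood, and 0 in stroke against sham blood. The scarce *Pfkm*, *Ankrd37* and *P4ha2*, with under 10 CPM in every library, lost their calls when single libraries were left out; *Pfkl*, *Pfkfb3*, *Hif1a*, *Egln3*, *Ero1l*, *Mxi1*, *Ndrg1* and *Bnip3l* kept theirs against stroke blood under all alternatives run. DESeq2 called 7 higher and 3 lower, and 4 higher and 3 lower, in the same comparisons.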

Other observations

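Marker lists of other cell types were counted in the comparison of the brain with stroke blood. There 13.1% of all genes tested were called higher and 7.86% lower. Of 10 dendritic cell markers 8 were called higher, and of 10 T or NK cell markers 3. *Siglech* belongs to both the dendritic cell and the microglia list. Neutrophil markers were called higher in 5 and lower in 1 of 8 tested. Of 10 platelet markers 9 were called lower, and of 9 B cell markers tested 0 were called in either direction by edgeR. All 3 choroid plexus markers tested were called higher, with a summed level of 234, 30.7 and 105 CPM in brain replicates 1 to 3 and at most 0.0498 CPM in the blood. Neural cell markers were called higher in 3 of 6 tested, and without the fold threshold 1 was lower. Their summed level was 195, 151 and 136 CPM in brain replicates 1 to 3 and 178 to 338 CPM in the blood libraries. This list holds *Aldoc*, named above as a glycolysis gene. Endothelial or mural cell markers were called higher in 3 of 6 tested, with 1 lower. Of 10 genes of dividing cells, 8 were called higher. These differences accompany those of the glycolysis and hypoxia genes in the same libraries, and their part in them was not tested.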
